A study of Mus musculus with 13 samples.

Results

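The genes Slc22a2, Slc22a6, Slc22a7, Slc22a8, Slc22a12, Slc47a1, Slco1a1, Abcc2 and Abcc4 encode membrane transporters of organic ions in the proximal tubule, and their open chromatin was followed by single nuclei ATAC-seq (snATAC-seq). The 9 genes were taken by name, and a peak was counted to a gene when it overlapped the gene body or the 2 kb upstream of it in GENCODE M21. This gave 125 of the 300755 peaks, of which 60 belonged to Abcc4, 16 to Slc47a1, 15 to Slc22a2, 10 to Abcc2, 9 to Slc22a8, 5 to Slc22a6, 4 each to Slc22a7 and Slc22a12, and 2 to Slco1a1. The 9 genes were among 32919 genes with a peak in such a window. Nuclei came from whole mouse kidneys in 5 samples, 2 at postnatal day 0 (P0; 1-day-old pups per the protocol), 1 at 3 weeks (P21) and 2 at 8 weeks (P56). P21 and P56 formed the adult group. The labels give no sex, strain, genotype or treatment for these samples, and do not say whether a sample was 1 animal or a pool. The tests of age therefore measure the spread between samples. Adult mice were perfused before the kidneys were taken and pups were not, so age and handling cannot be told apart.

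The proximal tubule clears drugs, toxins and metabolites from the blood in a pair of steps: carriers on the basolateral (blood) side take them into the cell, and carriers on the apical (urine) side pass them on. Organic anions enter by exchange for dicarboxylates through the carriers of Slc22a6 (OAT1) and Slc22a8 (OAT3), with Slc22a7 (OAT2) as a further organic anion carrier, while organic cations enter through that of Slc22a2 (OCT2). On the apical side the product of Slc47a1 (MATE1) exchanges cations for protons, that of Slc22a12 (URAT1) takes back urate, those of Abcc2 (MRP2) and Abcc4 (MRP4) use ATP to export conjugates, and that of Slco1a1 (OATP1A1) is an organic anion carrier. Several of these carriers are known to mature after birth and to differ between male and female rodents.

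In the deposited annotation the cluster PT is the convoluted segment (PCT) and PT2 the straight segment (PST), 2 of 13 named cell types. PCT held 547 and 557 nuclei in the P0 samples and 1551 to 2459 in the adult samples. PST held only 83 and 112 at P0 and 266 to 825 in adult, so the straight segment at birth is the least precise group. A nucleus has a peak open when at least 1 fragment lies in it. Samples held 16980853 to 43794155 open calls, and nuclei with more open peaks in all have any given peak open more often. PST nuclei were deeper, with a median of 7860 open peaks against 5473 in PCT. Shares of open nuclei are therefore given as counted, while tests used sums of open nuclei scaled to the open calls of each sample and segment. The PCT markers Slc34a1, Slc5a2 and Slc5a12 were higher in PCT than in PST in 5 of 5 samples, and the PST markers Kap and Atp11a higher in PST in 5 of 5 samples. The third PST marker, Slc7a13, was higher in PST in 4 of 5 samples. Marker lists of 9 other types, of 2 or 3 genes each, moved with age. In PCT the summed levels of 6 lists were lower and of 3 lists higher in every adult sample than in both P0 samples, and in PST 4 were lower, 2 higher and 3 overlapped. The connecting tubule markers were not among these lists. In PCT their levels overlapped between ages for Trpv5, while Calb1 was lower in every adult sample. In CPM, the usual unit for counts scaled to their total (here all open calls of the sample and cell type), the podocyte list in PCT went from 43.1 and 46.6 at P0 to 14.5 to 21.4 in adult, against 206 to 317 in podocytes, and the distal convoluted tubule list from 97.7 and 95.4 to 151 to 200, against 350.4 to 874 in that type. Slc12a3 carried the distal convoluted tubule list in PCT, while its other gene, Pvalb, went from 2.72 and 4.19 to 1.56 to 1.77, and of the loop of Henle list Umod was higher and Slc12a1 lower in every adult PCT sample. In PST the distal convoluted tubule list went from 84.8 and 111 at P0 to 190.2 to 221 in adult. Slc12a3 carried it there too, while Pvalb overlapped, at 6.06 and 2.01 at P0 and 1.57 to 3.69 in adult. The stroma list in PST went from 52.1 and 50.3 to 22.8 to 29.2. The part of these lists in the results was not tested. Open calls on the Y chromosome were 127 and 197 CPM at P0 and 76.1, 110 and 112 in the P21 and both P56 samples. Both P0 values thus lay above every adult value, and their part in the results was not tested. The PST markers Kap and Atp11a set the segments less far apart at P0. Kap was 13.3 and 15.1 CPM in PST against 4.95 and 2.99 in PCT at P0, and 68.3 to 113 against 2.85 to 9.95 in adult. Atp11a was 189 and 177 against 120 and 137 at P0, and 241 to 256 against 79.8 to 106 in adult. Slc7a13 had no such clear change. It was 19.4 and 11.1 against 11.6 and 9.27 at P0. In adult it was 37.9 against 18.3 at P21, and 41.1 against 26.5 and 24.86 against 24.87 in the P56 samples. Of the markers of both segments, Akr1c21 and Lrp2 had their highest mean levels in PCT and then PST. The third, Cubn, did not. Its mean over samples was 148 CPM in endothelial nuclei and 107 in podocytes, against 91.3 in PCT and 76.7 in PST. Of 27834 distinct barcodes, 477 occurred in more than 1 sample.

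Sequences from 4 peaks are given here, those of Slc22a7 and Slc22a8 for their called interaction of age and segment, that of Slc22a6 for its start site and that of Abcc4 for the smallest adjusted p among its rises with age in PCT. They run 5′ to 3′ on the strand of the gene (GRCm38, the build of the peaks; sequence from the RefSeq assembly). They are the centre of the peak upstream of Slc22a7 at chr17:46438641-46438940 (minus strand), the bases from a peak edge to the RefSeq start of Slc22a8 at chr19:8592967-8593181 (plus strand), the bases before the RefSeq start of Slc22a6 at chr19:8617907-8617995 (plus strand), and the centre of an intronic peak of Abcc4 at chr14:118694527-118694826 (minus strand). No base is set in capitals.
Slc22a7 upstream: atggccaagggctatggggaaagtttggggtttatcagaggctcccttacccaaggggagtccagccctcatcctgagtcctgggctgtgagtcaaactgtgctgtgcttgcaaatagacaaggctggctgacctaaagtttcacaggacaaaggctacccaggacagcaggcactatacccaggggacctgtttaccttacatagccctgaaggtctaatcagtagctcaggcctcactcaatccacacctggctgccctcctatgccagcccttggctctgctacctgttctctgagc
Slc22a8 start: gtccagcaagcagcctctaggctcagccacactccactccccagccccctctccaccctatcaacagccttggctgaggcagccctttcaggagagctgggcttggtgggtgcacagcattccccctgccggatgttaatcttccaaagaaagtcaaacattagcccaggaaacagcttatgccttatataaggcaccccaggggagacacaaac
Slc22a6 start: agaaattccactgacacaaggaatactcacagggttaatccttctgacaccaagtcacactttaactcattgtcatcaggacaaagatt
Abcc4 intron: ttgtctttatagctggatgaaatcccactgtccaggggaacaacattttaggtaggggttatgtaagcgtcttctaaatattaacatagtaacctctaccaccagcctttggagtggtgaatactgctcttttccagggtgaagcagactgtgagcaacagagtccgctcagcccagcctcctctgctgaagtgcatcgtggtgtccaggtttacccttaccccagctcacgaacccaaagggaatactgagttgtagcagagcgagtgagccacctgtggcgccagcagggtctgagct

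G and C made up 54.3% of the printed bases of Slc22a7, 55.8% of Slc22a8, 39.3% of Slc22a6 and 50.7% of Abcc4. CpG, the base pair step at which mammalian DNA is methylated, occurred 6 times in the Abcc4 stretch, 1 time in that of Slc22a8 and 0 times in the other two. Known letters of nuclear receptor sites were searched for on both strands in the central 300 bp of the 125 peaks and of the 300693 peaks searched in all. CAAAGTCCA, letters bound by HNF4, a known regulator of proximal tubule genes, was in 1 peak, intronic in Abcc4 (0.8% of the 125 against 0.729% of all), and DR1, a pair of AGGTCA copies in 1 direction with 1 base between them, in 0 against 0.0635%. A match is a description of letters only.

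**Figure D1:**
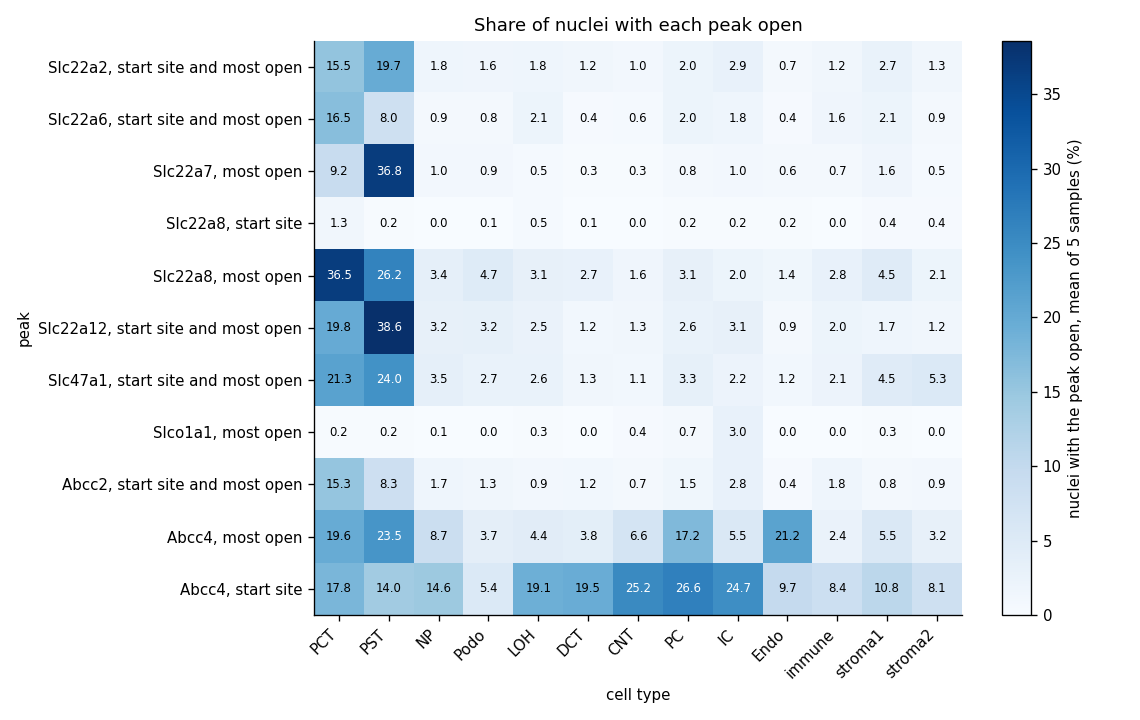
Share of nuclei (%, mean of 5 samples) in each of 13 cell types (columns) with the start site peak and the most open peak of each gene (lines of the map) open. PCT and PST stand out for Slc22a2, Slc22a6, Slc22a7, Slc22a8, Slc22a12, Slc47a1 and Abcc2, while the start of Abcc4 was open in all types and Slco1a1 was near 0 in both segments.

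For 7 of the 9 genes the peak at the start or the most open peak was open mainly in the proximal tubule. Over the 8 start and most open peaks of those 7 genes, the mean share over samples was 1.31% to 36.5% in PCT and 0.154% to 38.6% in PST, both lowest at the GENCODE start of Slc22a8. In the 11 other types it was at most 5.29%. In endothelial nuclei, which should lack these carriers, it was 0.207% to 1.37%, at a median of 3409.5 open peaks per nucleus. Among the 42 peaks of all 9 genes with a mean share of at least 5% in some type, PCT or PST had the highest share in 30 (71.4%), against 39.6% of 82530 such peaks of the whole series. PCT led 13 and PST 17 of the 42, and PCT led 6507 and PST 26198 of the 82530. The clusters were built from the same nuclei, so these counts are a description. All 9 peaks of Slc22a8 were highest in PCT and all 4 of Slc22a7 and of Slc22a12 in PST. PST nuclei were the deepest of the 13 types, and these shares are not scaled for depth. In the scaled test in adult, 3 of 3 tested peaks of Slc22a7 were called higher in PST. For Slc22a12 it was 1 of 4, where 21.9% of all peaks tested were called. Abcc4 differed, with 47 of 60 peaks highest in another type: its start peak (chr14:118705920-118706934) had a mean share of 26.6% in principal cells, 25.2% in connecting tubule, 17.8% in PCT and 5.38% in podocytes. Over all 13 types, neighbours in the order of means differed by less than the larger of their SDs over samples.

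Slco1a1 had no peak at its start. Its 2 peaks lay in introns, and neither passed the filter on low values in any comparison. The more open one (chr6:141920860-141921213) was open in 15 of 7412 PCT nuclei (0.202%) and 5 of 1943 PST nuclei (0.257%). Intercalated cells, a collecting duct type, had the highest share, at 20 of 599 nuclei (3.34%), with 1.79% to 3.72% in the 5 samples. In PST at P0 it was open in 0 of 83 and 0 of 112 nuclei, which allows shares of up to 3.61% and 2.68% by the limit of 3 counts, and of up to 4.35% and 3.24% by the exact (Clopper-Pearson) 95% interval, both for counting error alone.

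**Figure D2:**
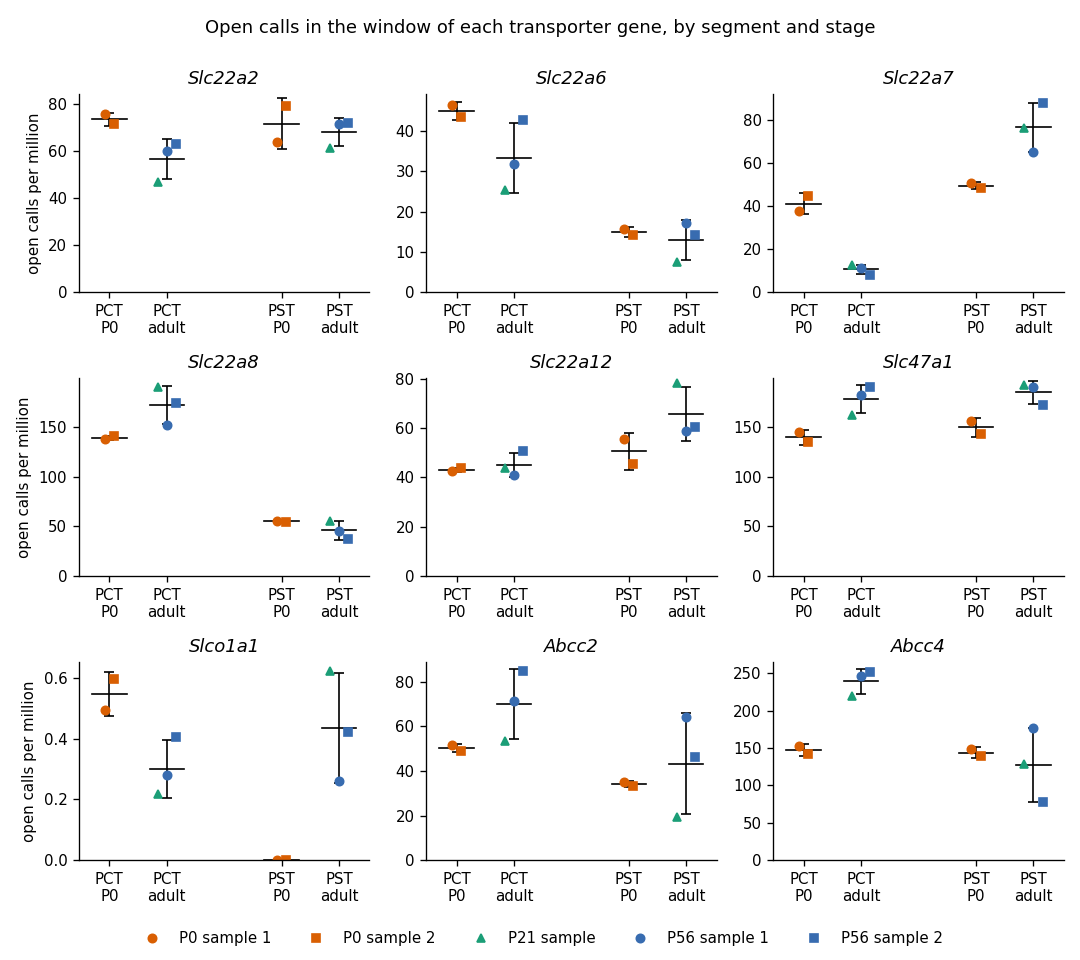
Open calls in the window of each gene in CPM of the same sample and segment (vertical axes, linear from 0), for PCT and PST at P0 and adult. Points are samples, lines the group mean and bars the SD (n = 2 at P0, 3 in adult). Slc22a7 was called between segments in adult and not at P0, while Slc22a6 and Slc22a8 are lower in PST at both ages.

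Among the organic anion carriers Slc22a6, Slc22a7 and Slc22a8, Slc22a7 had the largest change with age in both segments. In PCT the open calls of its window were 37.6 and 44.5 CPM at P0 and 12.5, 11.2 and 8.2 in the P21 and both P56 samples. In PST they were 50.9 and 48.3 at P0 and 76.5, 65.2 and 88.2 in adult. The stages do not overlap in either segment, and they move in opposite directions. With edgeR's quasi-likelihood test and Benjamini-Hochberg (BH) adjustment over all genes tested, Slc22a7 fell by 1.83 on the log2 scale from P0 to adult in PCT (SE 0.21, adjusted p = 0.000391). In PST it rose by 0.71 (SE 0.20, adjusted p = 0.0334). That second call was lost without P0 sample 1 (0.79, adjusted p = 0.216), P0 sample 2 (0.68, adjusted p = 0.274) or P56 sample 2 (0.56, adjusted p = 0.0859), and with DESeq2 (adjusted p = 0.0699), thinned nuclei (adjusted p = 0.394), equal nuclei (adjusted p = 0.052) or the gene body alone (adjusted p = 0.132). The difference between these changes, tested as the interaction of stage and segment, was 2.65 (SE 0.27, adjusted p = 0.000112), and it was past the threshold of 0.05 under all 13 alternatives tried (1.89 to 3.38). In adult, PST exceeded PCT by 2.93 (SE 0.16, adjusted p = 2.17e-08), a 7.6-fold difference. At P0 both PST values lay above both PCT values, by 0.27 (SE 0.15, adjusted p = 0.378), with no call.

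The signal of Slc22a7 lay mostly in the peak just upstream of its start (chr17:46438501-46439079, with its middle at -333 bp from the start), whose centre is printed above. It was open in 19.2% and 18.5% of PCT nuclei at P0 and in 3.93%, 2.36% and 2.18% of those in the P21 and both P56 samples. In PST the shares were 33.7% and 32.1% at P0 and 33.8%, 23.6% and 60.5% in adult. The PCT stages are well apart, and the PST stages overlap. No other type had a mean share above 1.62%, that of stroma 1. The fall in PCT was 2.36 on the log2 scale (SE 0.29, adjusted p = 0.000121), the change in PST 0.44 (SE 0.24, adjusted p = 0.235), and the interaction 3.13 (SE 0.31, adjusted p = 4.97e-08). In adult the peak was 10.7-fold higher in PST than in PCT (log2 3.42, SE 0.20, adjusted p = 1.08e-12). At P0 the difference was 0.28 (SE 0.17, adjusted p = 0.438). With each nucleus thinned to 1000 open peaks, the adult means were 0.530% in PCT and 3.65% in PST, and those at P0 2.95% and 1.503%, so that the order at P0 turned. An exonic peak 3′ of it (chr17:46436811-46437481) was 5.16-fold higher in adult PST than in PCT (adjusted p = 1.00e-08), and another (chr17:46433817-46434158) fell in PCT by 1.79 (SE 0.34, adjusted p = 0.00171).

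**Figure D3:**
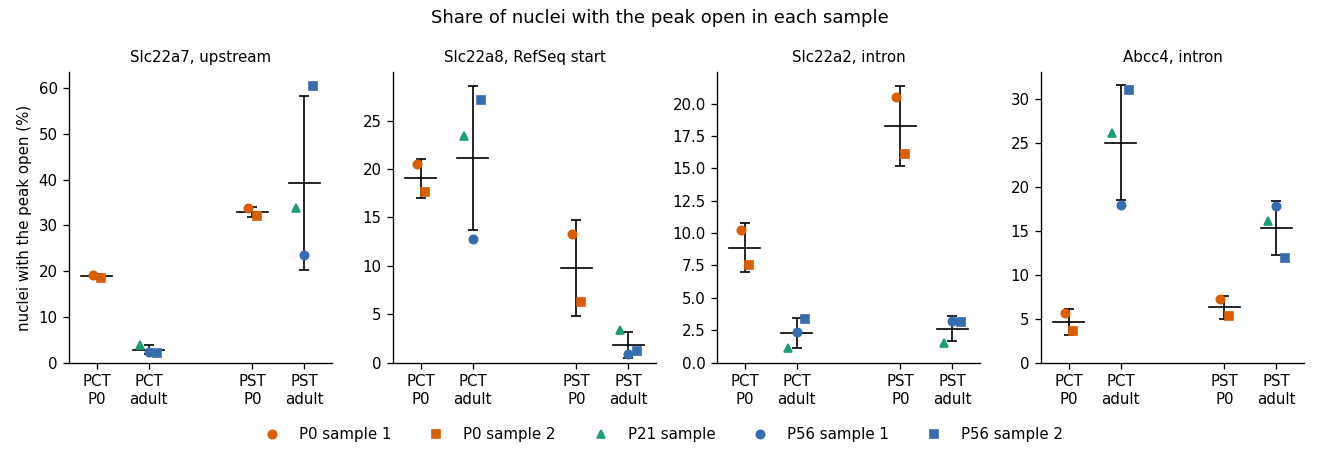
Share of nuclei (%) with the peak open in each sample, for the upstream peak of Slc22a7, the RefSeq start of Slc22a8, and intronic peaks of Slc22a2 and Abcc4. Lines are group means and bars the SD (n = 2 at P0, 3 in adult). The Slc22a7 peak fell in PCT from 18.8% to 2.82% on average, while the Slc22a8 start in PST stood at 9.75% at P0 and 1.84% in adult.

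Slc22a8 had the lowest PST to PCT fold of the 8 genes tested in adult. Its window held 138 and 141 CPM in PCT at P0 and 152 to 191 in adult, against 55.7 and 54.3 in PST at P0 and 37.0 to 55.95 in adult. PST was lower in each of the 5 samples, by 1.33 on the log2 scale at P0 (SE 0.11, adjusted p = 5.2e-13) and 1.93 in adult (SE 0.12, adjusted p = 6.85e-08). With nuclei thinned to 1000 open peaks the P0 call was lost (adjusted p = 0.241). In adult all 9 of its peaks were called lower in PST, as were 20.4% of all peaks tested. In PCT the window rose by 0.45 with age (SE 0.12, adjusted p = 0.0175), a call lost without P0 sample 1 (adjusted p = 0.221) or P0 sample 2 (adjusted p = 0.144), with equal nuclei (adjusted p = 0.0901) or with thinned nuclei (0.11, adjusted p = 0.745). The interaction at the level of the gene was -0.61 (SE 0.21, adjusted p = 0.136).

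GENCODE and RefSeq place the start of Slc22a8 apart, and the data differ between them. The peak over the GENCODE start (chr19:8591244-8591492) was open in at most 2.35% of PCT nuclei in any sample. The peak over the RefSeq start at 8593182 (chr19:8592967-8593511) was open in 20.5% and 17.6% of PCT nuclei at P0 and 23.4%, 12.8% and 27.2% in adult, so PCT stages overlap. In PST it was open in 13.3% and 6.25% at P0 and 3.38%, 0.913% and 1.21% in adult, which do not overlap. From P0 to adult it fell by 2.30 on the log2 scale in PST (SE 0.70, adjusted p = 0.0413), and the change differed from that in PCT by -2.73 (SE 0.55, adjusted p = 0.00229). The PST fall was lost without P0 sample 1 (adjusted p = 0.489), P0 sample 2 (adjusted p = 0.253) or the filter on low counts (adjusted p = 0.159). The interaction was lost without P0 sample 1 (-2.13, adjusted p = 0.209), with equal nuclei (adjusted p = 0.282), with thinned nuclei (adjusted p = 0.802) and with no block (adjusted p = 0.0757). In adult the peak was 18.99-fold lower in PST than in PCT (log2 -4.25, SE 0.29, adjusted p = 9.92e-12), and at P0 2.91-fold lower (log2 -1.54, SE 0.26, adjusted p = 3.16e-05). The P0 call was lost with DESeq2 (adjusted p = 0.309) and with thinned nuclei (adjusted p = 0.634). An intronic peak (chr19:8597383-8598239) had the same order at both ages, at 15.1% in adult PCT and 1.86% in adult PST. The most open peak of the gene (chr19:8604708-8605676, exonic) was less uneven, at 38.3% ± 11.6 (SD, n = 3) in adult PCT and 25.2% ± 6.52 (SD, n = 3) in adult PST.

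Slc22a6 was lower in PST at both ages and had no call for age. Its window held 46.5 and 43.3 CPM in PCT at P0 and 25.4, 31.7 and 42.7 in adult, and in PST 15.7 and 14.1 at P0 and 7.5, 17.3 and 14.1 in adult. PST was lower in 5 of 5 samples. The difference was -1.58 at P0 (SE 0.21, adjusted p = 1.58e-07) and -1.35 in adult (SE 0.17, adjusted p = 2.94e-05). The P0 call was lost with DESeq2 (adjusted p = 0.108) and with thinned nuclei (adjusted p = 0.657). The start peak (chr19:8617907-8618668) was open in 22.3% and 17.2% of PCT nuclei at P0 and 11.1%, 10.0% and 21.9% in adult, against 2.63% to 12.0% of PST nuclei over the 5 samples. Its difference was -1.59 at P0 (SE 0.26, adjusted p = 1.4e-05) and -1.41 in adult (SE 0.21, adjusted p = 2.81e-06), and its P0 call was lost with DESeq2 (adjusted p = 0.257) and with thinned nuclei (adjusted p = 0.717).

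Slc22a2, the basolateral cation carrier, was called in no comparison as a whole gene. Its window held 71.7 and 75.7 CPM in PCT at P0 and 46.9 to 63.1 in adult, and 64.2 and 79.5 in PST at P0 and 61.5 to 71.9 in adult. The adult difference between segments was 0.28 (SE 0.10, adjusted p = 0.0534). The start peak (chr17:12583842-12584789) was open in 11.5% to 20.5% of PCT nuclei and 13.5% to 28.8% of PST nuclei over the 5 samples. Single peaks in its introns did move with age. One (chr17:12588927-12589459) was open in 10.2% and 7.54% of PCT nuclei at P0 and 1.096% to 3.39% in adult, and in 20.5% and 16.1% of PST nuclei at P0 and 1.504% to 3.20% in adult. The stages do not overlap in either segment. It fell by 1.53 in PCT (SE 0.36, adjusted p = 0.006) and by 2.46 in PST (SE 0.47, adjusted p = 0.00517). The PCT call was lost without P0 sample 1 (adjusted p = 0.074) or with thinned nuclei (adjusted p = 0.0524), and the PST call without P0 sample 1 (adjusted p = 0.147) or P0 sample 2 (adjusted p = 0.151). Another intronic peak (chr17:12596112-12596657) had a called interaction, but it was open in 0 of 83 and 0 of 112 PST nuclei at P0 and in at most 2.30% of PST nuclei in adult, so its fitted fold is no bound. Its highest mean share was in podocytes, at 3.19%.

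On the apical side, Slc47a1, the proton exchanger of cations, had no called difference between segments as a whole gene. Its window held 145 and 135 CPM in PCT at P0 and 162, 182 and 190 in adult, and 156 and 143 in PST at P0 and 192, 191 and 172 in adult. The stages do not overlap in either segment, and the rise was 0.49 in PCT (SE 0.12, adjusted p = 0.0146) and 0.37 in PST (SE 0.14, adjusted p = 0.0957, no call). The PCT call was lost without P0 sample 1 (adjusted p = 0.125), P0 sample 2 (adjusted p = 0.168) or with thinned nuclei (adjusted p = 0.172). The difference between segments in adult was 0.06 (SE 0.10, adjusted p = 0.713). The start peak (chr11:61377935-61379194) was open in 15.1% to 31.5% of PCT nuclei and 18.1% to 31.9% of PST nuclei. Of its 16 peaks, all tested in PCT, 6 rose with age there and none fell, where 16.3% of all peaks tested rose and 17.6% fell. In PST 10 of the 16 were tested, and 2 rose and 1 fell, against 9.04% and 6.99% of all peaks. Between segments in adult 2 of the 16 were higher in PST and 1 in PCT, against 21.9% and 20.4%. An intronic peak (chr11:61356244-61357168) was open in 5.67% and 3.59% of PCT nuclei at P0 and 7.35% to 10.1% in adult, and in 12.0% and 6.25% of PST nuclei at P0 and 11.7%, 19.03% and 34.4% in adult. It was called higher in adult in both segments, by 1.35 in PCT (SE 0.28, adjusted p = 0.00301) and 1.53 in PST (SE 0.36, adjusted p = 0.0134). Without P0 sample 2 neither call held (adjusted p = 0.06 in PCT and 0.251 in PST), and without P0 sample 1 (adjusted p = 0.115) or with equal nuclei (adjusted p = 0.0528) the PST call was lost. With thinned nuclei the PCT call was lost (adjusted p = 0.441). In adult the peak was also higher in PST than in PCT, by 0.86 (SE 0.17, adjusted p = 0.000169), a call that held under all 9 alternatives.

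Slc22a12, the urate carrier, was somewhat higher in PST in adult. All 4 of its peaks also lie in the window of Nrxn2, so they cannot be ascribed to Slc22a12 alone. The start peak (chr19:6542615-6544022) was open in 23.6% and 19.7% of PCT nuclei at P0 and 12.5% to 25.6% in adult, and in 48.2% and 30.4% of PST nuclei at P0 and 27.2% to 53.0% in adult. PST was higher in each sample. After scaling to depth the adult difference was 0.67 (SE 0.15, adjusted p = 0.000654), lost with no filter on low counts (0.32, adjusted p = 0.175), and that at P0 0.31 (SE 0.16, adjusted p = 0.319). For the window as a whole, PST exceeded PCT in adult by 0.52 (SE 0.12, adjusted p = 0.00377).

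The ATP-driven exporters Abcc2 and Abcc4 were both higher in PCT in adult. The window of Abcc2 held 51.7 and 49.0 CPM in PCT at P0 and 53.7, 71.5 and 84.8 in adult, and in PST 35.1 and 33.2 at P0 and 19.3, 64.4 and 46.1 in adult. PST was lower in each sample, by 0.55 at P0 (SE 0.16, adjusted p = 0.0362) and 0.70 in adult (SE 0.17, adjusted p = 0.00491). The adult call was lost with no block for the sample (-0.61, adjusted p = 0.236) and with thinned nuclei (-0.41, adjusted p = 0.142). The P0 call was lost with DESeq2 (adjusted p = 0.9998), equal nuclei (adjusted p = 0.0686) and thinned nuclei (adjusted p = 0.67). Its start peak (chr19:43782054-43782609) was open in 12.8% and 10.8% of PCT nuclei at P0 and 11.4% to 26.2% in adult, against 4.14% to 10.7% of PST nuclei over the 5 samples. The rise of the window in PCT was 0.62 (SE 0.20, adjusted p = 0.0382), and it was lost without P0 sample 1 (adjusted p = 0.207), P0 sample 2 (adjusted p = 0.212) or P56 sample 2 (adjusted p = 0.104), and with equal (adjusted p = 0.0775) or thinned nuclei (adjusted p = 0.195).

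Abcc4 rose with age in PCT by 0.84 (SE 0.12, adjusted p = 0.00108). Its window held 153 and 141 CPM in PCT at P0 and 219.5, 246 and 252 in adult, with no overlap, and this call held under all 13 alternatives (0.77 to 0.91). In PST the values were 148.96 and 139 at P0 and 128, 177 and 77.8 in adult, which overlap. PST was lower than PCT in adult by 0.98 (SE 0.17, adjusted p = 0.000549), with no call at P0. The interaction was -0.96 (SE 0.28, adjusted p = 0.0711), so a difference in the change with age between segments was not called; 4 of 13 alternatives called it. The rise with the smallest adjusted p was in an intronic peak (chr14:118694264-118695088), whose centre is printed above. It was open in 5.67% and 3.59% of PCT nuclei at P0 and 26.1%, 18.0% and 31.0% in adult, and in 7.23% and 5.36% of PST nuclei at P0 and 16.2%, 17.8% and 11.9% in adult. The stages do not overlap in either segment. Its rise was 7.0-fold in PCT (log2 2.81, SE 0.24, adjusted p = 1.93e-05) and 3.14-fold in PST (log2 1.65, SE 0.56, adjusted p = 0.0633, no call). Among the 13 types none other than PCT and PST had a mean share above 4.42%. The further cluster PT_out, outside these types, had one of 10.0%. Another intronic peak (chr14:118674857-118675262) had a larger fold at a lower share, from 0.548% and 0.539% of PCT nuclei at P0 to 2.84%, 3.58% and 5.27% in adult (log2 3.20, SE 0.48, adjusted p = 0.000378). The P0 shares are 3 of 547 and 3 of 557 nuclei, and the log2 fold was 3.02 to 6.52 over 11 alternatives, highest with thinned nuclei. Over all samples the mean share of this peak was highest in principal cells (4.45%), with 2.97% in nephron progenitors and 2.55% in PCT. Of 3 peaks over annotated starts, one within the gene (chr14:118676884-118677316) was open in 5.39% to 12.4% of PCT nuclei and 0.893% to 1.20% of PST nuclei. This was an 11.9-fold difference in adult (log2 -3.57, SE 0.33, adjusted p = 2.11e-09). Another (chr14:118699228-118700519) had its highest mean share in endothelial nuclei, at 5.46%. The most open peak of the gene in the adult segments (chr14:118635412-118636301) had a mean share of 23.5% in PST, 21.2% in endothelial nuclei and 19.6% in PCT.

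**Figure D4:**
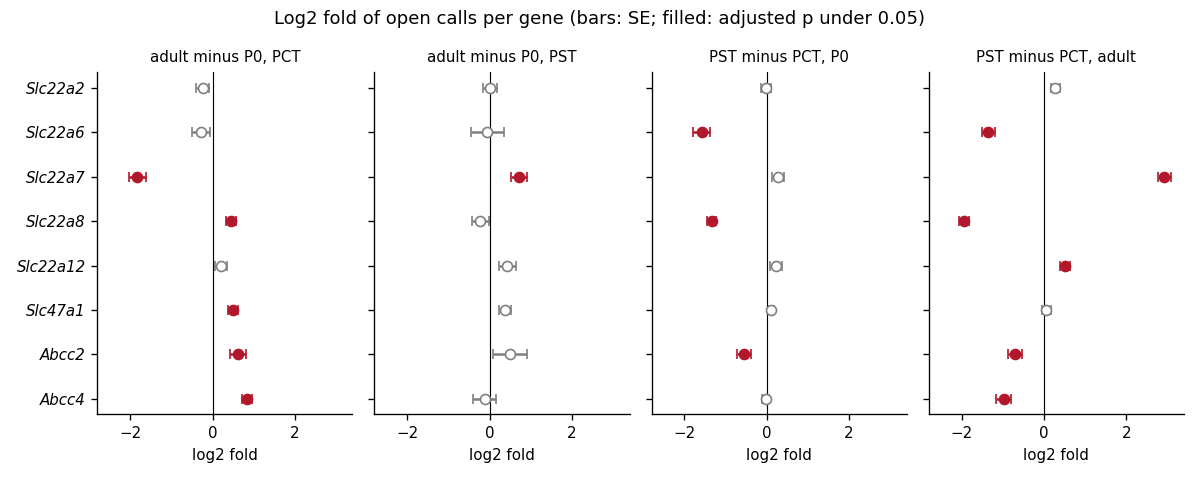
Log2 fold of the open calls of each gene window (horizontal axes) for adult minus P0 in PCT and PST and for PST minus PCT at P0 and adult. Points are edgeR estimates, bars their SE, and filled points have an adjusted p under 0.05. Slc22a7 has the widest segment difference in adult (2.93) and none called at P0, and Slc22a6 and Slc22a8 are called lower in PST at both ages.

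Counted over all members, the 8 genes that passed the filter on low values gave 5 calls for age in PCT, 4 higher in adult (Abcc2, Abcc4, Slc22a8 and Slc47a1) and 1 higher at P0, where 12.9% and 15.8% of all genes tested were called. In PST 1 was called, higher in adult, against 5.65% higher in adult and 7.76% higher at P0 of all genes. Between segments in adult 2 were higher in PST and 4 in PCT, where 17.6% and 14.3% of all genes were called. At P0 none was higher in PST and 3 were higher in PCT, against 6.2% and 4.49%, and with nuclei thinned to 1000 open peaks none of the 3 was called. The interaction was called for 1 gene, Slc22a7, with a signed change from P0 to adult that was more positive in PST than in PCT, against 1.97% of all genes in that direction and 1.42% in the other. Genes not called had log2 folds between -0.96 and 0.50 over the 5 comparisons.

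The same comparisons were made peak by peak. Of the 125 peaks 73 passed the filter in PCT across ages, and 18 of these (24.7%) were higher in adult and 7 (9.59%) higher at P0, where 16.3% and 17.6% of all peaks tested were called. The 7 higher at P0 were 3 of Slc22a2, 2 of Slc22a7 and 2 of Abcc4. In PST 32 passed, with 2 higher in adult (6.25%) and 3 higher at P0 (9.38%), against 9.04% and 6.99% of all peaks. Between segments in adult 70 passed, with 11 higher in PST (15.7%) and 28 higher in PCT (40.0%), against 21.9% and 20.4%. Of the 28, 12 were of Abcc4, 9 of Slc22a8 and 4 of Slc22a6. At P0 42 passed, with none higher in PST and 9 higher in PCT (21.4%), against 7.11% and 5.95%. The interaction was called for 3 of 69 peaks, 2 with a signed change more positive in PST than in PCT and 1, the Slc22a8 peak, with one more negative, against 2.39% and 0.801%. The median log2 fold between segments in adult was -0.33 over the 70 peaks and -0.01 over all peaks tested. A peak passes the filter through the group in which it is high, so the peaks that passed are not all members, and since the clusters were made from the openness of the same nuclei, p-values between segments rank peaks only.

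**Figure D5:**
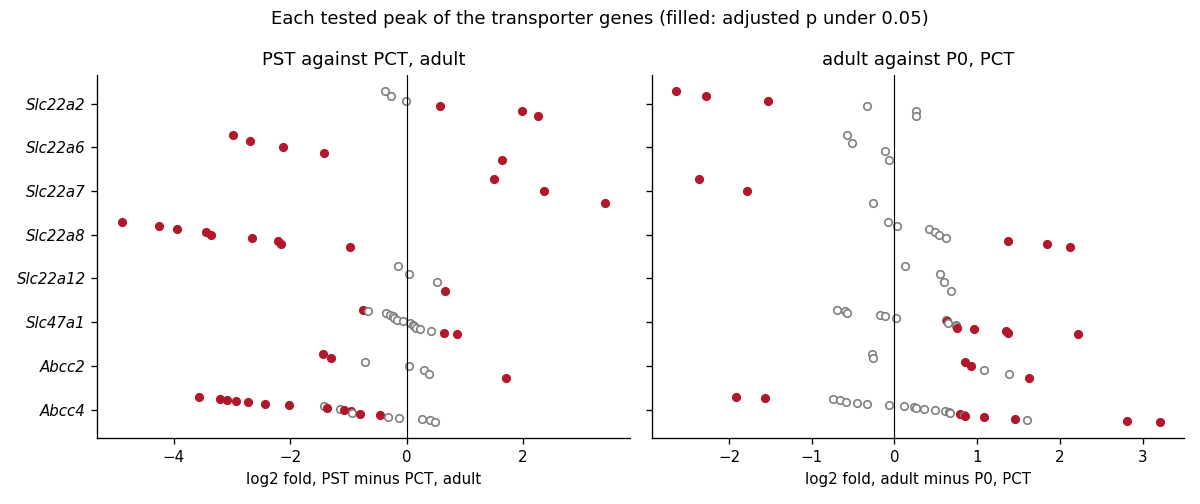
Log2 fold of each tested peak (points) of 8 genes, for PST minus PCT in adult (left, 70 peaks) and adult minus P0 in PCT (right, 73 peaks). Filled points have an adjusted p under 0.05, and the vertical offset within a gene has no meaning. All 9 peaks of Slc22a8 lie on the PCT side and the 3 tested peaks of Slc22a7 on the PST side.

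Related genes of organic ion transport were counted from a list of 42, of which 38 to 41 passed the filter. With age 18 of 41 rose and 6 fell in PCT, against 12.9% and 15.8% of all genes tested, and 13 of 39 rose and 1 fell in PST, against 5.65% and 7.76%. The organic anion genes held 9 of the PCT rises out of 14 tested, among them Slc22a22 (1.99, SE 0.29, adjusted p = 0.00102), a prostaglandin carrier, and Slc17a1 (0.99, SE 0.16, adjusted p = 0.0016), an apical phosphate and urate carrier. The organic cation genes moved both ways: Slc22a4, a carnitine and ergothioneine carrier, rose in PCT by 1.26 (SE 0.16, adjusted p = 0.000604), and Slc29a4, a monoamine carrier, fell by 1.60 in PCT (SE 0.22, adjusted p = 0.000884) and by 1.38 in PST (SE 0.34, adjusted p = 0.0202). Between segments in adult 11 of 41 were higher in PST and 9 in PCT, against 17.6% and 14.3% of all genes. The OATP family held 5 of the 11, with Slco4c1, a basolateral carrier of organic anions, 3.36 higher in PST (SE 0.15, adjusted p = 4.82e-09), and Abcc1, an ABC exporter, was 2.50 higher (SE 0.17, adjusted p = 1.09e-07). Slc13a3, the dicarboxylate carrier that fuels the exchange by OAT1 and OAT3, was lower in PST with a log2 difference of -0.78 in adult (SE 0.10, adjusted p = 3.41e-05) and -0.60 at P0 (SE 0.08, adjusted p = 4.67e-07). The interaction was called for 7 of 41 genes, all with a signed change more positive in PST than in PCT, as for 1.97% of all genes, and led by Slco4c1 (1.87, SE 0.30, adjusted p = 0.0025). Hnf4a, which encodes HNF4, rose in PCT by 0.50 (SE 0.13, adjusted p = 0.016). In PST its window held 236 and 292 CPM at P0 and 461, 306 and 336 in the P21 and both P56 samples. Every adult value lay above both P0 values, the closest being 306 and 292, and no test of Hnf4a in PST is given here.

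The genes whose pattern was most alike over the 65 sums of sample and cell type were found among 25356 genes by Pearson's r of log2 CPM. The sums share samples and depth, so r is a description. Slc47a1 was most like Slc16a9 (r = 0.897) and Slc6a13 (r = 0.884), both carriers of small organic solutes, and Slc22a8 most like Pck1 (r = 0.870), an enzyme of glucose synthesis, and BC035947 (r = 0.846). Slc22a12 was most like Alpl (r = 0.816) and Gm15263 (r = 0.815), and Slc22a2 most like Slc6a20a (r = 0.814) and Sypl2 (r = 0.810). Slc22a6 followed Igfbp1 and Ftcd (r = 0.765 for both), Slc22a7 Fam169a (r = 0.763) and Cecr2 (r = 0.752), Abcc2 Tmem106a (r = 0.754) and Slc25a37 (r = 0.750), and Abcc4 Dcbld1 (r = 0.718) and AC174800.1 (r = 0.711).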

How the data were processed

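Reads were mapped by the authors with Cell Ranger ATAC 1.1.0 (build mm10). They called peaks on pooled nuclei of each cell type with MACS2 (tools per the submitters' processing notes), clustered and named the nuclei, and deposited a binarized matrix of nucleus by peak counts, each 0 or 1 and not scaled for depth. It held 166031996 open calls, and 89197 entries stored as 0 were read as closed. The deposited metadata gave each nucleus its sample, and 664 nuclei in 2 clusters outside the 13 types were left out of the comparisons. Open nuclei were summed per sample and type (39 nuclei or more in each sum), for peaks and over the peaks of each gene window, and tested in R 4.3.3 with edgeR 4.0.16 (TMM scaling; features kept by filterByExpr at count 10 and total 15; quasi-likelihood F test; BH over all features tested, threshold 0.05). Ages were compared in 2 against 3 samples. Segments and the interaction had the sample as a block, so their tests measure the spread of the segment difference between samples. Segments at P0 were compared in 2 samples, so the small p-values there rest largely on a spread that edgeR shares over features. SE is the absolute log2 fold divided by the square root of F. Alternatives were DESeq2 1.42.0, its size factors, no filter, thinning to 1000 open peaks per nucleus, equal numbers of nuclei, other blocks, each sample left out, and windows of the gene body alone or with 5 kb upstream. Motifs were matched exactly on both strands of the central 300 bp, or of the whole peak.

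Named peaks were, for each gene, the start site peak and the most open one in adult PCT and PST, and for each comparison up to 3 per direction with the smallest adjusted p; genes named outside the 9 were at most 3 per direction by the same order, the 2 most alike for each, and Hnf4a, chosen after its values were seen. The members and lists were chosen with earlier results of these data known. RefSeq gave a start for 7 of the 9 genes. Intervals and limits on shares cover counting error only. Doublets were not searched for, and embeddings and the cell tables of the scRNA-seq were not used here. Some planned results are not reported here.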

Additional observations from a re-analysis of the deposited data

Results flagged for a closer look

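The change with age differed between PST and PCT by the interaction test of edgeR for 1 of 8 genes and 3 of 69 peaks tested. Of all genes tested, 1.97% were called with a change more positive in PST and 1.42% with one more negative. For peaks the shares were 2.90% and 1.45% of the members against 2.39% and 0.801% of all. For Slc22a7 as a whole the difference was 2.65 on the log2 scale, and for its upstream peak it was 3.13. For the peak over the RefSeq start of Slc22a8 at 8592967 it was -2.73, a call that was lost without P0 sample 1, with equal nuclei per sum (-2.01, adjusted p = 0.282), with thinning (-2.45, adjusted p = 0.802) and with no replicate block (-2.72, adjusted p = 0.0757). For the Slc22a2 peak at 12596112 the fitted value was 8.93, which rests on 0 open PST nuclei at P0 and is no bound, and its call was lost without P0 sample 1 (adjusted p = 0.201), P0 sample 2 (adjusted p = 0.228) or P56 sample 2 (adjusted p = 0.0733). No group held 4 or more samples, so single samples were not searched for outliers.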

How the results depend on the processing

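For the member genes and their named peaks, the folds kept their direction in all alternatives of called results. Of 181 values for genes 154 stayed past the threshold, and of 420 for peaks 349. Single folds of other peaks and of the related genes under the alternatives are not given. Within this set of member genes and named peaks, signs changed only among values not called, in 29 of 282 for genes and 52 of 513 for peaks. Of those whose values are given in the text, Slc22a7 at P0 between segments was -0.62 with thinned nuclei and -0.15 with equal nuclei, its upstream peak -0.029 with no filter on low counts and -0.34 with equal nuclei, and the interaction of Slc22a8 0.16 with thinned nuclei. The cause was not tested, and thinning leaves fewer peaks to test.

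Counts of peaks called of the 9 genes moved as follows. With thinned nuclei they were 5 of 36 tested for age in PCT (25 of 73 as reported) and 0 of 1 for age in PST (5 of 32). They were 13 of 25 between segments in adult (39 of 70), 0 of 4 at P0 (9 of 42) and 1 of 21 for the interaction (3 of 69). Thinning thus left few peaks to test in PST across ages and at P0. With equal nuclei they were 1 of 17 for age in PST, 19 of 34 in adult, 3 of 12 at P0 and 1 of 21 for the interaction. DESeq2 called 15 of 73 for age in PCT and 1 of 42 at P0, and no filter gave 14 of 123 for age in PST. The share of all peaks called in these settings is not given. Genes called were 2 with thinned and 3 with equal nuclei for age in PCT (5 as reported). For age in PST (1) they were 0 with thinned nuclei, equal nuclei, DESeq2 or the gene body alone and 2 with no filter or 5 kb upstream. At P0 (3) they were 0 with thinned nuclei and 1 with DESeq2, and for the interaction (1) 2 with no filter or equal nuclei. Leaving out 1 sample gave 9 to 26 peaks and 2 to 5 genes for age in PCT, 0 to 7 and 0 to 2 in PST, 28 to 39 and 6 to 7 between segments in adult, and 2 to 9 and 1 to 2 for the interaction. The low ends for age came without P0 sample 1 or 2, and for genes in PST also without P56 sample 2. The 9 peaks of the interaction came without P56 sample 1, and its 2 genes without P56 sample 1 or 2. At P0 leaving out a sample leaves no residual degrees of freedom, so no test was made.

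With the replicate number as a block, age gave 25 peaks and 5 genes in PCT and 6 and 1 in PST. Without the sample block, segments gave 33 and 5 in adult and 9 and 3 at P0, and the interaction 2 and 1. Deviations of samples with the same number correlated at 0.081 and 0.0475 over peaks and 0.196 and 0.0751 over genes in PCT and PST, so the numbers were read as names. Of 384 shares under other settings, 90 moved by more than 1 SD. PST at P0 rests on 83 and 112 nuclei.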

Other observations

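A further cluster that the annotation calls PT_out lies outside the 13 types and entered no comparison. It held 446 nuclei (52 to 131 per sample) with a median of 6283.5 open peaks. Slc22a8 was open there at its most open peak in 30.3% ± 6.20 and at its RefSeq start in 15.6% ± 3.36 (SD, n = 5 samples). The upstream peak of Slc22a7 was open in 2.99% ± 2.56, the start peak of Slc22a12 in 10.2% ± 5.00, that of Slc47a1 in 16.7% ± 4.07, and the Slco1a1 peak in none. The intronic peak of Abcc4 at 118694264 was open in 10.0% ± 5.57. The intronic peak of Slc22a2 at 12588927 was open in 15.2% and 20.5% of these nuclei at P0 and in 0 to 5.34% in adult.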
